A study of Homo sapiens with 8 samples.

Results

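The genes RIN2, RAB11FIP1, CD48, NCF1, DKK1, FRMD3 and NAPSB were followed through Reh cells that carried active IRF5, active IKKβ or both. They were selected on measured values of these same arrays, as genes that rose with IRF5-4D and not with IKKβ(EE) and that encode no chemokine. They are 7 of 19775 genes measured, and 7 of 48 genes that were called higher with IRF5-4D and were not called with IKKβ(EE). All probe sets annotated to exactly 1 of these symbols were taken, which gave 14 probe sets. Reh is an established human cell line derived from acute lymphoblastic leukaemia of precursor B cells. The 4 groups were Reh cells given IRF5-4D together with IKKβ(EE) (the combination), IRF5-4D alone, IKKβ(EE) alone, or control constructs (mock), and each was measured on 2 Affymetrix U133 Plus 2.0 arrays numbered 1 and 3. The submitters call both variants constitutively active and the arrays of a group biological duplicates, and the sources used here do not give the meaning of the numbers 1 and 3. The model is thus 1 cell line with forced expression, with the share of cells that took up a construct and the time to harvest not stated in the labels, so a change in more cells and a change in each cell cannot be told apart.

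IRF5 belongs to the interferon regulatory factors, a family of transcription factors, and acts downstream of Toll-like receptors, and in myeloid and B cells it is known for driving inflammatory genes. Phosphorylation lets it dimerise, enter the nucleus and bind DNA elements built on repeated GAAA. IKKβ is the kinase that frees NF-κB from its inhibitors, and it is also known to phosphorylate IRF5. The 7 genes do not form 1 pathway. RIN2 and RAB11FIP1 act in endosomal traffic, CD48 is a surface ligand of the SLAM family, NCF1 is a cytosolic subunit of the phagocyte NADPH oxidase, DKK1 is a secreted inhibitor of WNT signalling, FRMD3 holds a FERM domain of the kind that links membrane proteins to the cytoskeleton, and NAPSB is a transcribed pseudogene related to the aspartic protease napsin A.

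Promoter windows of 300 bases (250 before and 50 after an annotated start) were searched for 4 of the 7 genes, in 7 windows. They come from RefSeq, build GRCh38.p14. Any window on the chromosome of RAB11FIP1 was left out, so that gene was not searched. Windows are shown because the genes were chosen for moving together with an IRF construct. Both strands were searched for GAAANNGAA, a short form of the interferon-stimulated response element, for the shorter IRF core AANNGAAA, which overlaps it, and for the kappaB site by its usual consensus. Matches are in capitals. The NCF1 window, chr7:74773761-74774060 on the plus strand, holds the first motif 116 to 108 bases before the start and the IRF core 114 to 107 bases before it. One of 4 FRMD3 windows, chr9:83467693-83467992 on the minus strand, which belongs to an alternative start, holds the first motif 189 to 181 bases before that start and the core 187 to 180 bases before it. The windows of CD48 (chr1:160711773-160712072, minus strand) and DKK1 (chr10:52314031-52314330, plus strand) hold none of the 3 motifs.
NCF1: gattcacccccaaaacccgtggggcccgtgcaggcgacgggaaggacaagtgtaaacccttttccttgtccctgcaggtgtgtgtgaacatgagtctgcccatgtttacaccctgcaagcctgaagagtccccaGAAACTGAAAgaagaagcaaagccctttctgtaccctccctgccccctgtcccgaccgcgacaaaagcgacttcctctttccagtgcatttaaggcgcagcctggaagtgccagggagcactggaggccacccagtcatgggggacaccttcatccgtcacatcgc
FRMD3: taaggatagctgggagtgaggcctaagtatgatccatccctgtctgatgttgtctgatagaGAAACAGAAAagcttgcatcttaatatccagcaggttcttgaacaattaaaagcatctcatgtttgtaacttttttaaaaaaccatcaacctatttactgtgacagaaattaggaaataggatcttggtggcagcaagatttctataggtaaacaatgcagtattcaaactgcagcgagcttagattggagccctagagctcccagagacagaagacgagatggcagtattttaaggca
CD48: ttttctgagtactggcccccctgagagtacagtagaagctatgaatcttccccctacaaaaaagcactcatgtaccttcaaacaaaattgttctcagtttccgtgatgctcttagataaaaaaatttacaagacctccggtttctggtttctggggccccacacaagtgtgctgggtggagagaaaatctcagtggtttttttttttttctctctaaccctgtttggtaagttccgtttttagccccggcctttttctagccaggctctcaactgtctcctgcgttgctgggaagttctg
DKK1: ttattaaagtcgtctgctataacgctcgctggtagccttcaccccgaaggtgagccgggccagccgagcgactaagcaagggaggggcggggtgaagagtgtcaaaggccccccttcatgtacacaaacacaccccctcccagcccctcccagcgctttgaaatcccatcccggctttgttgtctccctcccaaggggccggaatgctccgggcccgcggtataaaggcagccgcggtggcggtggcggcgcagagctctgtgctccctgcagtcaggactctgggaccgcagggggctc

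Of the other FRMD3 windows 1 holds a kappaB match, 1 holds an IRF core and 1 holds none. Among all 35116 windows of the RefSeq table, 8.11% hold GAAANNGAA, 22.8% the IRF core and 11.3% a kappaB match. A match describes these letters only, and whether IRF5 binds there was not measured.

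Expression values are log2 values from RMA, the authors' normalization, 1 per probe set and array. Where a gene had several probe sets, the one of highest average level stood for it. Lower quartiles per array ran between 3.67 and 3.73 and medians lay near 5.11, and a level near the quartile is not shown to lie above background. Duplicates correlated at 0.994 to 0.997 across genes. As a check of the labels, 1 of 3 IKBKB probe sets read 11.11 and 9.33 in the combination and 12.57 and 10.98 with IKKβ(EE), against 4.80 and 4.06 in mock cells. The IRF5 probe set with the highest level read 8.0 and 7.82 in the combination and 7.15 and 7.25 with IRF5-4D, against 6.93 and 7.06 in mock cells, and no source used here says whether the 3 IRF5 probe sets detect the construct, so they do not check that label. Of 9 precursor B cell markers measured, 8 lay above the array medians in every group and VPREB1 read 4.06 to 4.46 on all arrays. In each group 6 to 7 of 10 T and NK cell markers and 5 of 8 myeloid markers lay below the array median on both arrays, among them CD3D, CD3E, CD14, LYZ and S100A9. CD5, of T cells and some B cells, read 6.01 to 6.27, and CSF1R, of macrophages, read 5.49 to 6.15. The myeloid markers ITGAM and MPO read 5.40 to 5.81 and 4.86 to 5.94, and the NK cell marker NCAM1 read 5.18 to 5.52.

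RIN2, a guanine nucleotide exchange factor for RAB5, read 10.17 and 9.32 in the combination, 8.60 and 8.21 with IRF5-4D, 3.98 and 3.72 with IKKβ(EE) and 3.56 and 4.03 in mock cells. The mock and IKKβ(EE) arrays overlapped and lay at the level of the lower quartile, and both combination arrays lay above both IRF5-4D arrays. RAB11FIP1, an effector of RAB11 in endosomal recycling, read 10.51 and 10.01 in the combination, 10.13 and 9.87 with IRF5-4D, 7.28 and 7.42 with IKKβ(EE) and 6.98 and 7.24 in mock cells. Here the combination and IRF5-4D arrays overlapped, and the IKKβ(EE) arrays lay just above the mock arrays, by 0.044 at the nearest.

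CD48, a glycolipid-anchored ligand of CD2 and CD244 on leukocytes, read 11.98 and 11.26 in the combination, 10.64 and 10.57 with IRF5-4D, 8.83 and 8.71 with IKKβ(EE) and 9.22 and 9.35 in mock cells. On the probe set that stood for it, its groups did not overlap. It was the 1 gene of the 7 whose IKKβ(EE) arrays both lay below the mock arrays, and its second probe set did not share this lower reading. NCF1, the p47phox organiser of the NADPH oxidase, read 9.02 and 8.37 in the combination, 8.65 and 8.56 with IRF5-4D, 7.11 and 6.77 with IKKβ(EE) and 6.57 and 6.42 in mock cells. The combination and IRF5-4D arrays overlapped, and the IKKβ(EE) arrays lay above the mock arrays. The NCF1 values come from 1 probe set of the kind that may bind several transcripts, and NCF1 has near-identical pseudogene copies, so the share of NCF1 itself is uncertain. A further probe set annotated to NCF1 together with NCF1B and NCF1C was not used.

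DKK1, which blocks the WNT coreceptors LRP5 and LRP6, read 9.63 and 9.62 in the combination, 9.24 and 9.09 with IRF5-4D, 5.92 and 6.22 with IKKβ(EE) and 6.28 and 5.73 in mock cells. Its IKKβ(EE) and mock arrays overlapped, and its combination arrays, which lay 0.016 apart, were above the IRF5-4D arrays. FRMD3 read 8.57 and 7.98 in the combination, 7.68 and 7.63 with IRF5-4D, 4.34 and 4.44 with IKKβ(EE) and 4.51 and 4.20 in mock cells. It showed the same order, with overlap of IKKβ(EE) and mock. NAPSB read 9.63 and 8.75 in the combination, 7.81 and 7.43 with IRF5-4D, 5.08 and 4.42 with IKKβ(EE) and 3.76 and 4.15 in mock cells. Its 4 groups did not overlap, and both IKKβ(EE) arrays lay above the mock arrays.

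**Figure D1:**
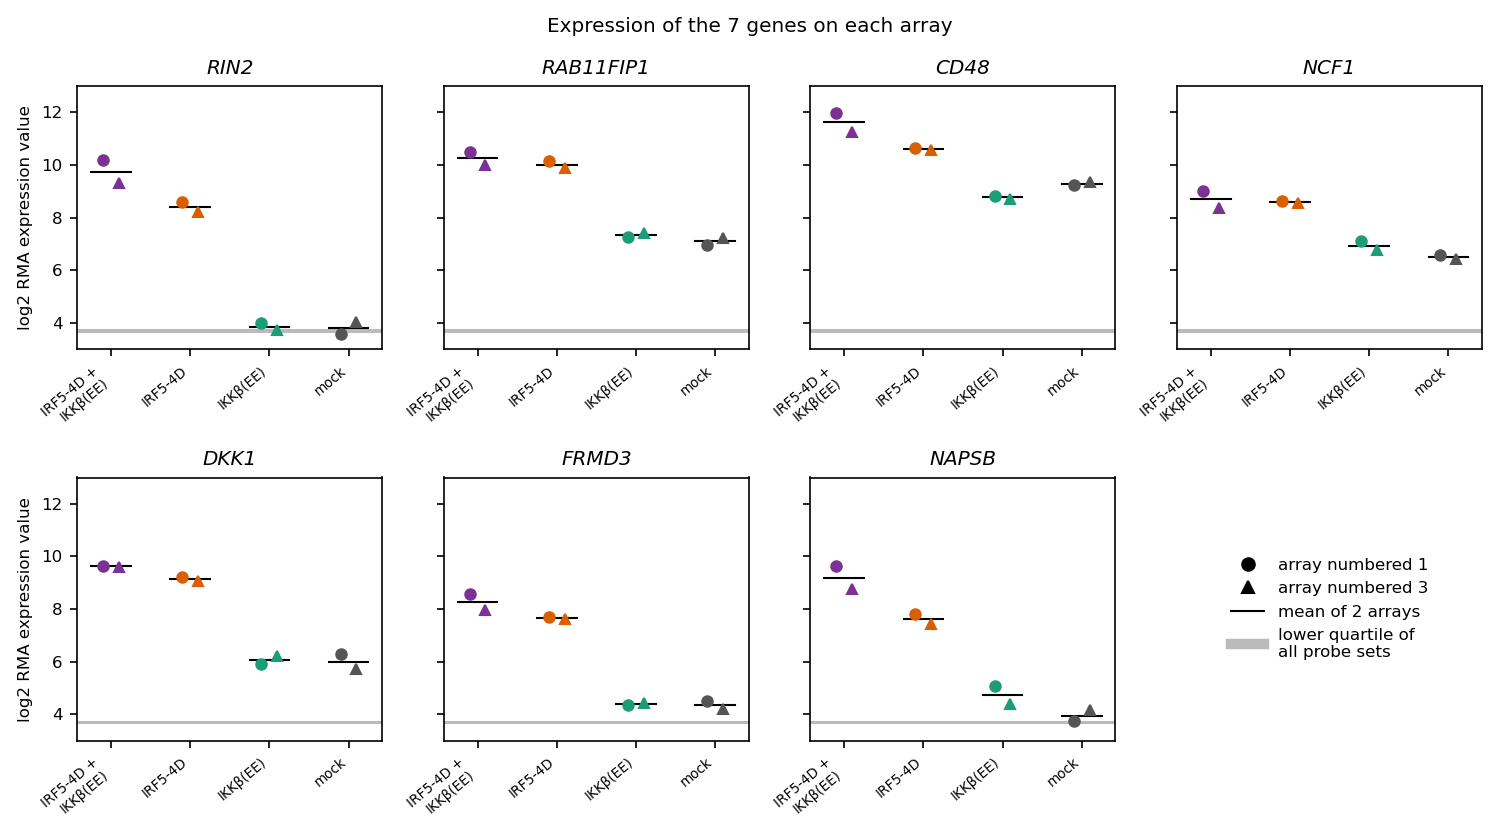
Log2 RMA expression value (vertical axis) of the 7 genes on each of the 8 arrays, by group; circles are arrays numbered 1, triangles arrays numbered 3, lines the means of 2 arrays and the grey band the lower quartile of the arrays. In every panel the combination and IRF5-4D arrays lie above the IKKβ(EE) and mock arrays, and RIN2 spans the widest range, between 3.56 in mock cells and 10.17 in the combination.

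The values that chose the genes are given as a description. Against mock, the log2 difference with IRF5-4D was 4.61 for RIN2, 3.66 for NAPSB, 3.30 for FRMD3, 3.16 for DKK1, 2.89 for RAB11FIP1, 2.11 for NCF1 and 1.32 for CD48, and all 7 were among the 0.314% of genes called higher. The last gene inside the adjusted p threshold of 0.05 was P2RX7, at 1.17, and the first outside it was RGS1, at 1.27. With IKKβ(EE) the differences from mock were 0.79 for NAPSB, 0.44 for NCF1, 0.24 for RAB11FIP1, 0.065 for DKK1, 0.058 for RIN2, 0.041 for FRMD3 and -0.52 for CD48. None of the 7 was among the 0.516% of genes called there. Both IKKβ(EE) arrays stood above both mock arrays for NAPSB, NCF1 and RAB11FIP1, and below them for CD48 on the probe set that stood for it. The share of all genes with such a separation was not counted, so no result about these genes is read from it. The description as genes of IRF5-4D alone rests on the call, and equal levels were not shown.

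**Figure D2:**
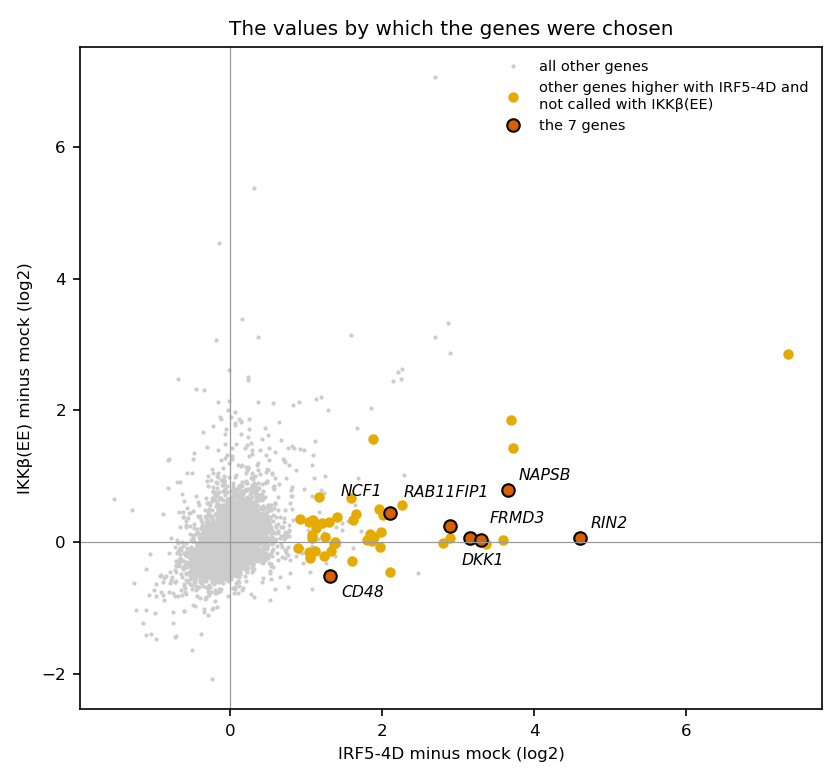
Log2 difference of each of 19775 genes with IRF5-4D minus mock (horizontal axis) and with IKKβ(EE) minus mock (vertical axis); the 7 genes are named, and the other genes called higher with IRF5-4D and not called with IKKβ(EE) are filled in yellow. The 7 genes lie between 1.32 and 4.61 on the horizontal axis and between -0.52 and 0.79 on the vertical axis.

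The combination arrays had no part in the rule by which the genes were chosen. They did enter the average level by which 1 probe set was taken to stand for a gene. For RAB11FIP1 the probe set taken averaged 7.11 in mock cells, where a further one averaged 7.15 and rose by 1.03 in the combination. All 7 genes were higher in the combination than in mock cells. RIN2 rose by 5.95 (SE 0.28) or 61.8-fold over mock, NAPSB by 5.23 (SE 0.31) or 37.6-fold and FRMD3 by 3.92 (SE 0.19) or 15.1-fold. DKK1 rose by 3.62 (SE 0.19), RAB11FIP1 by 3.15 (SE 0.18), CD48 by 2.34 (SE 0.20) and NCF1 by 2.20 (SE 0.21). The fold changes of RIN2, NAPSB and FRMD3 start from mock levels near the lower quartile, and their size is uncertain. In limma all 7 passed, with adjusted p between 1.26e-05 for RIN2 and 0.000485 for NCF1, where 2.66% of all genes were called higher. The mock arrays are shared with the contrasts that chose the genes. When the probe sets of a gene were averaged, RIN2 read 3.21 and CD48 1.51 and both kept the call.

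The combination was then set against IKKβ(EE) alone, which asks what adding IRF5-4D did where IKKβ was already active. All 7 genes rose, by 5.89 (SE 0.28) for RIN2, 4.44 (SE 0.31) for NAPSB, 3.88 (SE 0.19) for FRMD3 and 3.56 (SE 0.19) for DKK1. RAB11FIP1 rose by 2.91 (SE 0.18), CD48 by 2.85 (SE 0.20) and NCF1 by 1.76 (SE 0.21). The limma adjusted p ran between 2.3e-05 for RIN2 and 0.00336 for NCF1, against 1.37% of all genes called higher. The IKKβ(EE) arrays had a part in the choice. When probe sets were averaged, RIN2 read 3.15 and CD48 1.69, and both kept the call.

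Adding IKKβ(EE) to IRF5-4D gave smaller differences. NAPSB rose further, by 1.57 (SE 0.31) or 2.96-fold, and it was the 1 gene of 7 that passed in limma (adjusted p = 0.0462), where 1.22% of all genes were called higher. CD48 read 1.01 (SE 0.20, adjusted p = 0.0501) and RIN2 1.34 (SE 0.28, adjusted p = 0.0566) above IRF5-4D alone, both just outside the threshold. FRMD3 read 0.62, with a 95% interval of 0.19 to 1.05, and DKK1 read 0.46, with an interval of 0.045 to 0.88. RAB11FIP1 read 0.26 (-0.15 to 0.67) and NCF1 0.091 (-0.38 to 0.56), intervals that leave room for a further rise as well as for none. Both combination arrays lay above both IRF5-4D arrays for 5 of 7 genes, as they did for 20.5% of all genes. Over 18 alternative settings NAPSB was called in 6, CD48 in 5, RIN2 in 3 and FRMD3 in 1, and with repeated quantile normalization or robust eBayes the single call was CD48 and not NAPSB. Without combination replicate 1 CD48 read 0.66 and FRMD3 0.32, and when probe sets were averaged CD48 read 0.47 and RIN2 0.82. Without combination replicate 3 there were 4 calls (NAPSB, CD48, RIN2 and FRMD3), and when any other single array was left out there were 0. The IRF5-4D arrays had a part in the choice.

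**Figure D3:**
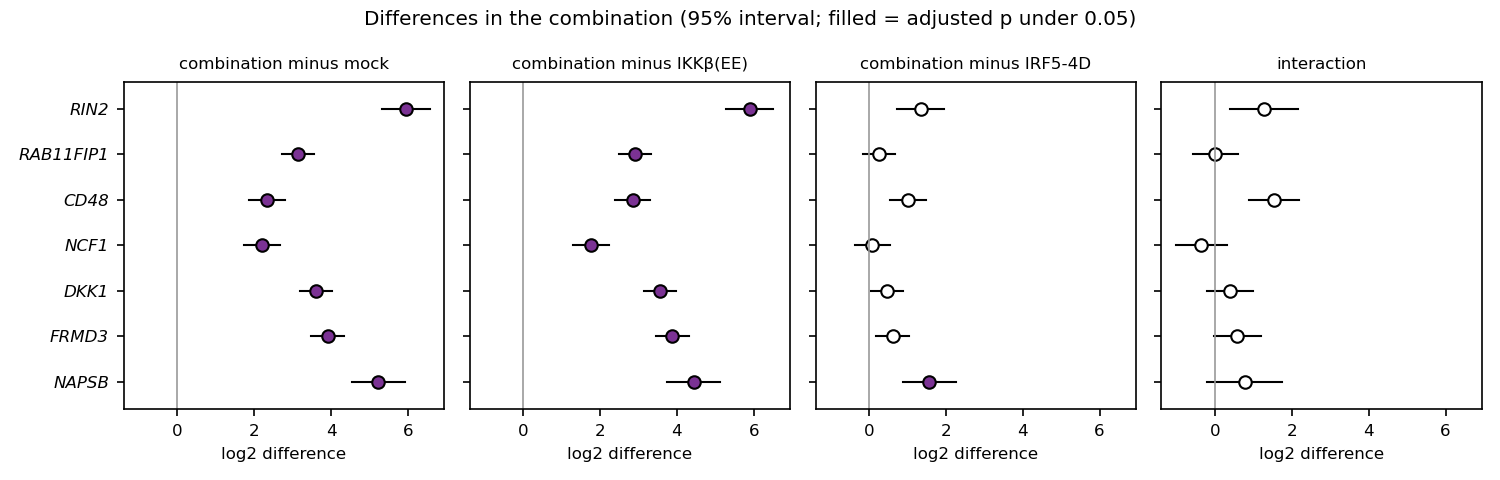
Log2 difference of the 7 genes (horizontal axis) in the combination against mock, against IKKβ(EE) and against IRF5-4D, and the interaction; lines are 95% intervals from limma and filled points have an adjusted p under 0.05. All 7 points are filled in the first 2 panels, and only NAPSB, at 1.57, is filled in the third.

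The interaction is the effect of IKKβ(EE) in the presence of IRF5-4D minus its effect without it, on the log2 scale. None of the 7 genes passed in limma, against 0.126% of all genes. An unadjusted p under 0.05 was seen for 2 of the 7 genes and for 1206 of all 19775. The IRF5-4D, IKKβ(EE) and mock arrays all enter this contrast and had a part in the choice, so its values for these genes are not independent of it. CD48 read 1.53 (SE 0.29, adjusted p = 0.14), with a 95% interval of 0.88 to 2.18. RIN2 read 1.28 (SE 0.39, adjusted p = 0.524), with an interval of 0.40 to 2.16. The other 5 genes ranged between -0.35 for NCF1 and 0.78 for NAPSB. Without combination replicate 3 CD48 read 1.89 and passed.

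The combination arrays differed from each other. On all 7 genes array 1 read above array 3, by 0.016 for DKK1 and by 0.50 to 0.88 for the others, while array 1 was the higher on 49.5% of all genes and on 76.8% of the 526 genes called higher in the combination. The IKBKB probe set that was high in both groups with IKKβ(EE) moved the same way, at 11.11 and 9.33. The highest IRF5 probe set read 8.0 and 7.82, and whether it detects the construct is not known. The part of the construct level in these gaps was not tested.

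The other probe sets showed how far the result depends on the probe. Of 7 further probe sets, 6 rose in the combination against mock in the fit of all 41091 single-symbol probe sets, where 2.04% were called higher, and their differences ranged from 0.46 to 4.00. FRMD3 had 2 further probe sets, which rose by 4.00 and 1.46, and their values over the 8 arrays correlated with the first at 0.997 and 0.987. The second NAPSB probe set rose by 3.93. RAB11FIP1 rose by 2.54 on 1 further probe set and by 1.03 on another, of the kind that may bind several transcripts, with an adjusted p of 0.0497 in limma. CD48 rose by 0.69 on its second probe set, which read 5.6 and 5.46 in the combination against 4.97 and 4.71 in mock cells. There the combination and IRF5-4D means were 5.53 and 5.59, a difference of -0.066 with a 95% interval of -0.36 to 0.23, where the first probe set gave 1.01. The second RIN2 probe set did not pass, at 0.46 (limma adjusted p = 0.381), and read 3.21 to 4.21 on all arrays, around the lower quartile.

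**Figure D4:**
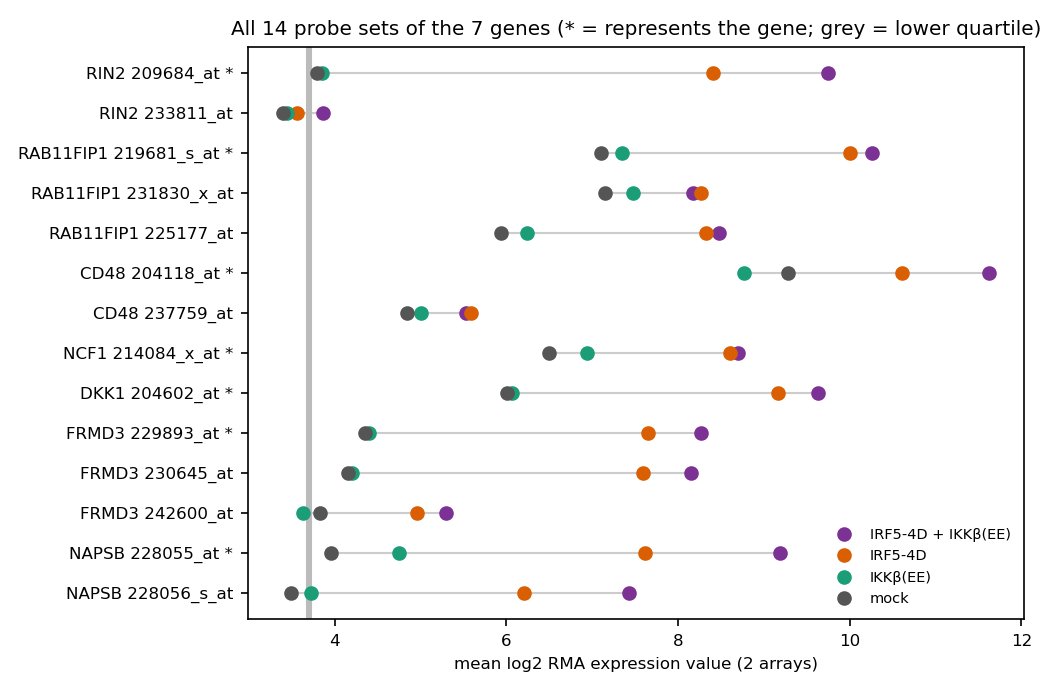
Mean log2 RMA expression value over 2 arrays (horizontal axis) of each of the 14 probe sets, by group; a star marks the probe set that represents the gene and the grey band is the lower quartile. The groups with IRF5-4D lie right of IKKβ(EE) and mock on each of the 14 probe sets, with the smallest spread on the second RIN2 probe set.

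Relatives and partners of the 7 genes were counted next, from lists of general knowledge. Together with cell type markers the 11 lists held 134 genes, of which 124 were measured. With IRF5-4D alone 0 of 124 passed in limma, where 0.319% of all genes were called. An unadjusted p under 0.05 was seen for 9 of these 124 genes and for 1017 of all 19775. With IKKβ(EE) 1 of 124 passed, KREMEN2. In the combination 10 were higher and 1 lower, which is 8.87% of the listed genes against 3.16% of all genes called. The lists were made with earlier results of these data known and include the cell type markers, so this share is a description.

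Of 18 regulators of RAB5 and RAB11 endosomes, 1 rose in the combination, the myosin MYO5B, a motor of recycling endosomes, by 1.49 (SE 0.24, adjusted p = 0.00999). The median difference of this list was 0.062, against -0.027 for all genes. Of 13 NADPH oxidase genes 1 rose and 1 fell. CYBB, the catalytic subunit gp91phox with which NCF1 assembles, read 9.33 and 8.73 in the combination against 6.91 and 7.36 in mock cells, a rise of 1.89 (SE 0.39, limma adjusted p = 0.0341). With IRF5-4D alone CYBB read 6.83 and 7.58, overlapping with mock, and with IKKβ(EE) it read 6.92 and 8.11. DUOX1, a dual oxidase of epithelia, fell by 0.63 (SE 0.12, adjusted p = 0.0217). It read 5.14 and 5.03 in the combination and 5.77 and 5.65 in mock cells. With IRF5-4D alone it read 5.07 and 5.01, overlapping with the combination but not called, and with IKKβ(EE) 5.51 and 5.39.

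Of 12 genes of the SLAM family and its partners 3 rose in the combination. SLAMF1, the self-ligand CD150, read 10.48 and 8.88 in the combination, 5.99 and 5.37 with IRF5-4D, 6.58 and 5.77 with IKKβ(EE) and 5.25 and 4.28 in mock cells, a difference from mock of 4.92 (SE 0.51, limma adjusted p = 0.000943). Its combination arrays stood apart from the other groups and 1.60 apart from each other, while CD48 was already high with IRF5-4D alone. SLAMF7, a self-ligand of plasma and NK cells, rose by 0.94 (SE 0.14), with adjusted p = 0.00781. CD58, which like CD48 is a ligand of CD2, rose by 0.73 (SE 0.13, adjusted p = 0.021), on a probe set that may bind several transcripts.

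Of 14 WNT antagonists and their receptors 1 rose in the combination, KREMEN2, a receptor of DKK1, by 1.07 (SE 0.20, limma adjusted p = 0.022). KREMEN2 rose by 1.98 (SE 0.20, adjusted p = 0.00297) with IKKβ(EE) alone, where DKK1 read 0.065 from mock, and read 0.06 from mock with IRF5-4D alone. Of 9 WNT target genes 0 passed in limma in the combination, and 3 had an unadjusted p under 0.05, as did 3167 of all 19775 genes. The highest by level were LEF1, a WNT transcription factor, at 12.80 and 12.97 in the combination against 13.03 and 13.12 in mock cells, and ZNRF3, a ligase that removes WNT receptors, at 8.15 and 8.04 in the combination against 7.54 and 8.59 in mock cells. The levels of DKK1 protein and of WNT signalling were not measured.

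Of 6 aspartic proteases 1 rose, NAPSA, by 1.19 (SE 0.20, limma adjusted p = 0.0134). It is the protein-coding relative of NAPSB, and its arrays read 6.83 and 6.35 in the combination, 6.18 and 5.78 with IRF5-4D, 5.62 and 5.45 with IKKβ(EE) and 5.56 and 5.23 in mock cells. The groups followed the same order as for NAPSB over a smaller range, and whether its probe set also detects NAPSB transcripts was not tested. Of 15 FERM domain genes 1 rose, the phosphatase gene PTPN3, by 1.12 (SE 0.24, adjusted p = 0.038). PTPN3 read 6.06 and 6.14 in the combination, 4.47 and 4.53 with IRF5-4D, 6.68 and 5.99 with IKKβ(EE) and 4.70 and 5.26 in mock cells, so it was high in the groups with IKKβ(EE) and not with IRF5-4D alone.

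CD48 and NCF1 are genes of many leukocytes, so markers of other cells are given beside them. Of 10 T and NK cell markers 1 rose in the combination, the granule gene NKG7, by 1.34 (SE 0.19). The summed linear signal of the 10 ranged from 318 to 340 in the combination, 295 to 301 with IRF5-4D, 292 to 298 with IKKβ(EE) and 307 to 325 in mock cells. Of 8 myeloid markers 0 passed in limma in the combination, 1 had an unadjusted p under 0.05, and their summed signal was 208 to 238 in the combination, 247 to 267 with IRF5-4D, 216 to 236 with IKKβ(EE) and 254 to 272 in mock cells. Of 10 stromal and epithelial markers 1 rose, CDH1 or E-cadherin, by 4.96 (SE 0.44). The summed signal of this list was 534 to 889 in the combination, 384 to 414 with IRF5-4D, 367 to 388 with IKKβ(EE) and 396 to 429 in mock cells. The CDH1 arrays read 9.02 and 7.39 in the combination, 5.32 and 4.62 with IRF5-4D, 3.31 and 3.52 with IKKβ(EE) and 3.19 and 3.31 in mock cells. The part of these marker changes in the values of the 7 genes was not tested. Of the other epithelial markers EPCAM read at most 3.25 and KRT19 at most 4.34 on any array, while KRT8 read 5.34 to 5.67 and KRT18 5.26 to 5.69, and the collagen gene COL1A1 read 7.35 to 7.82.

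**Figure D5:**
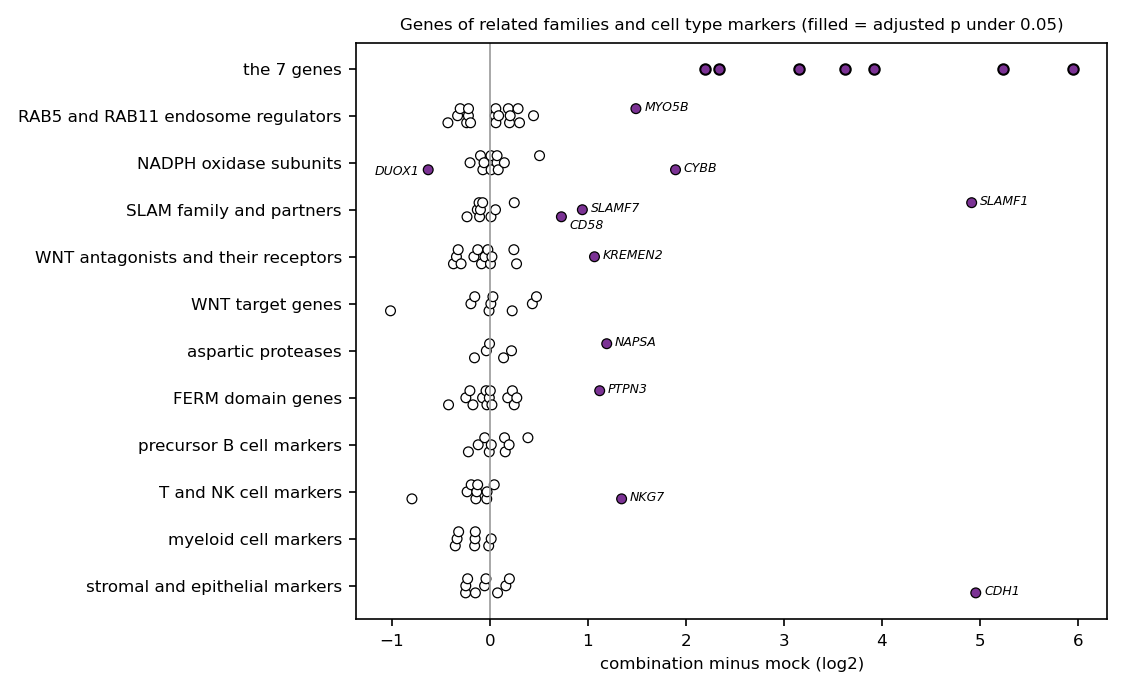
Log2 difference in the combination minus mock (horizontal axis) of the 7 genes (top row) and of each measured gene of the 11 lists; filled points have a limma adjusted p under 0.05 and are named in the lists. The 7 genes lie between 2.20 and 5.95, and in the lists SLAMF1 (4.92) and CDH1 (4.96) lie furthest right.

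The genes whose values over the 8 arrays were most like each of the 7 were sought among 554 other genes with an SD of at least 0.5. MX1, an interferon-induced GTPase, was the nearest to FRMD3 (r = 0.995), DKK1 (r = 0.994) and RAB11FIP1 (r = 0.990). IFIT5, an interferon-induced RNA-binding protein, was the nearest to RIN2 (r = 0.992), and IFIT1 of the same family was the nearest to NCF1 (r = 0.987). PLAUR, the urokinase receptor, was the nearest to CD48 (r = 0.993). It read -0.45 from mock with IKKβ(EE), where the first CD48 probe set was also lower and the second was not. SMIM14 was the nearest to NAPSB (r = 0.987), with 0.67 from mock with IKKβ(EE). These correlations describe the means of 4 groups more than 8 independent points, and they are high in part because the 7 genes were chosen for this pattern. Between the 7 genes themselves r ranged from 0.904 to 0.995 over 21 pairs. The second nearest genes were MYBPC2 for RIN2 and NAPSB, FCRLA for RAB11FIP1, SLPI for CD48, RASAL1 for NCF1 and IFIT5 for DKK1 and FRMD3.

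The 7 genes were also set beside the other 41 genes called higher with IRF5-4D and not called with IKKβ(EE). Not called does not mean unchanged. With IKKβ(EE) the 41 ranged from -0.45 to 2.86 from mock. An unadjusted limma p under 0.05 was seen there for 11 of the 41, 2 of the 7 and 1434 of all 19775 genes. In the combination 36 of the 41 were called above mock, with a median difference of 1.60, and the median of the 7 was 3.62. Against IRF5-4D alone the median of the 41 was 0.054, with 8 called higher and 5 lower, and the median of the 7 was 0.62, with 1 higher and 0 lower. Over all 19775 genes 526 were called above mock in the combination. Against IRF5-4D alone 242 of all genes were called higher and 37 lower. The 7 were picked by hand among the 48, so these counts are a description.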

How the data were processed

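The 8 arrays of transfected Reh cells, 2 for each of 4 groups taken from the sample titles, were used. The deposited values are log2 expression values made by the authors with RMA (background correction, quantile normalization, summary of probes), per the submitters' processing notes; version and chip definition were not given in the sources used here. Of 54675 probe sets, 62 controls and 13522 without exactly 1 symbol in the platform annotation were left out, leaving 41091 for 19775 genes. The probe set with the highest mean represented a gene, with no filter on level. All 7 symbols matched RefSeq through Entrez identifiers.

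All genes were fitted in limma 3.58.1 (R 4.3.3) with 1 mean per group (lmFit, eBayes, 4 residual and 5.09 prior degrees of freedom), with Benjamini-Hochberg adjustment over all genes and calls at 0.05. Differences are log2 with moderated standard errors (SE); intervals are 95%. The fit was tested on simulated data. The number of arrays limits the precision, and p-values measure the spread between these duplicates.

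The 7 genes and the lists were chosen with earlier results of these data known. Text names all 7, the called genes of each list, at most 2 by level where none was called, and the 2 genes most alike in pattern; the single markers named by level were chosen after their values were seen. Alternatives covered probe set choice and filters, centring, normalization, variance prior, groups fitted, left-out arrays, and a block for the array number. The numbers 1 and 3 are not stated to pair samples.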

Additional observations from a re-analysis of the deposited data

Results flagged for a closer look

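One result stood apart. On the probe set that stood for CD48, both IKKβ(EE) arrays lay below both mock arrays, while both combination arrays lay above both IRF5-4D arrays. There IKKβ(EE) was accompanied by a lower reading without IRF5-4D and by a higher one with it. The difference between these effects was 1.53 on the log2 scale, with an unadjusted p of 0.000453 in limma and an adjusted p of 0.14 over all genes, which did not pass. The IRF5-4D, IKKβ(EE) and mock arrays in this contrast took part in the choice of CD48, whose -0.52 with IKKβ(EE) against mock enters the value, so it is not independent of that choice. Over the alternatives this value ranged from 0.65 to 1.89 and the adjusted p from 0.00725 to 0.55. The second CD48 probe set read -0.23 in the same contrast. Groups of 2 arrays are too small to look for single arrays that lie far from their group.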

How the results depend on the processing

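The 7 genes were called above mock and above IKKβ(EE) in the combination under each alternative run that held them. NCF1 has no value without cross-hybridising probe sets. The run with genes above the median level cannot count as support for RIN2, NAPSB and FRMD3. Their mock means (3.80, 3.96 and 4.35) and IKKβ(EE) means (3.85, 4.75 and 4.39) lay under the array medians, near 5.11. These genes passed that filter only through the arrays with IRF5-4D, where they were high. The further rise over IRF5-4D was not stable: of 7 genes 1 was called, 0 with every probe set on its own, with genes above the median level or with only the groups compared, 3 with limma-trend, and 0 to 4 with 1 array left out. With the array number as a replicate block, which changed no other count of the 7 genes, 3 were called (NAPSB, CD48 with adjusted p = 0.0272 and RIN2 with adjusted p = 0.0297). Deviations of same-numbered arrays correlated at -0.073 to 0.34 between groups, and all-gene calls in this contrast became 446 with the block. For the interaction the count was 0, and 0 to 1 with 1 array left out. NCF1 against IRF5-4D ranged from -0.24 to 0.42 with 1 array left out. The interaction of RAB11FIP1, 0.016, read -0.18 with the mean of all probe sets, -0.013 with median centring and -0.23 to 0.26 with 1 array left out. The cause of these shifts was not tested. The 2 arrays a group and levels near the lower quartile limit the size of the changes of RIN2, NAPSB and FRMD3. With median centring 2 list genes were called with IKKβ(EE), against 1, and the other list counts did not change.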
